A study of Mus musculus with 2 samples.

Results

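Resting oligodendrocyte precursors, the cells that carry the marker genes of the oligodendrocyte lineage but show neither mitotic nor maturation genes, were taken from the cortex of mice at postnatal day 5. The cells were chosen by the measured transcripts themselves, among barcodes with 1000 or more unique molecular identifiers (UMIs, each standing for 1 captured transcript), 500 or more genes and a mitochondrial share of no more than 20%. In addition, at least 4 of Pdgfra, Cspg4, C1ql1, Lhfpl3, Olig1 and Sox10 were detected, Gpr17 and Bcas1 together had at most 2 UMIs, Mki67, Top2a and Cenpf together had at most 1, and at most 1 of Mag, Mog, Mobp, Ermn and Enpp6 was detected. This chose 1450 of 21126 kept barcodes, 832 of 11024 in the wild-type library (WT) and 618 of 10102 in the library from Katnal2 mutants (Mut), with 0 barcodes shared between the 2 sets. Katnal2 encodes a relative of katanin, an enzyme that severs microtubules, and the sources used here do not say which part of it is mutated. The tissue was kept at low temperature after dissection, dissociated with enzymes, sorted by flow cytometry with a gate that is not given, and loaded on a 10x Chromium controller. Each genotype is 1 library that pools animals of both sexes, and cells could not be assigned to animals. So no test of genotype was possible, every interval (95%) covers counting error only, and differences are given for these 2 libraries.

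Oligodendrocyte precursors (also called OPCs or NG2 glia) arise in the embryonic forebrain, spread through the cortex and divide or rest under the control of platelet-derived growth factor, whose receptor is Pdgfra. They receive synapses from neurons and carry glutamate receptors and ion channels. When they commit to differentiation they switch on Gpr17 and Bcas1, then the myelin genes, and lower Pdgfra and the NG2 proteoglycan Cspg4. In the first days after birth the mouse cortex holds many precursors and few myelinating cells.

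The genes of the rule are a description of how the cells were chosen. Pdgfra (chromosome 5, 75152292 to 75198215, plus strand, GRCm38) stood at 1143 UMIs per 1000000 UMIs of these cells (CPM; 1111 to 1175) in WT and 1229 (1193 to 1266) in Mut, and 98.2% and 98.1% of the cells held a UMI of it. In microglia of the same libraries, which should lack the gene, 3.60% and 6.28% of barcodes held one at median depths of 6282 and 7552 UMIs. Cspg4 stood at 446 and 454 CPM, C1ql1, a secreted C1q-like protein, at 551 and 498, and Lhfpl3 at 947 and 879.8. The transcription factors Olig1 and Sox10 stood at 1475 and 1518 CPM and at 202 and 216 CPM. All 6 markers were found in 383 WT and 294 Mut cells, 5 in 319 and 236, and exactly 4 in 130 and 88. Just outside the marker limit, 69 and 75 barcodes with exactly 3 markers had 187 and 102 CPM of Pdgfra, against 858 and 893 in the cells with exactly 4. The myelin condition removed 0 barcodes. The resting precursors had a median of 5093.5 UMIs and 2480.5 genes in WT and 5368.5 UMIs and 2661 genes in Mut, less than the medians of 6446 and 7625.5 UMIs over all kept barcodes.

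The word resting describes the limit on mitotic genes, and transcripts of S phase were present in some of the cells. With every cell thinned to 2000 UMIs, which left out 31 WT and 27 Mut cells, the resting precursors had a mean of 0.591 and 0.508 UMIs of G2 and mitosis genes outside the rule, against 13.1 and 12.6 in precursors with at least 4 UMIs of Mki67, Top2a and Cenpf (172 and 126 cells, called dividing precursors below). Both groups were chosen by mitotic genes, so this difference was set by the choice. Of S phase genes, the genes of DNA replication, at least 4 UMIs were found in 16.4% of resting precursors in WT (13.9 to 19.1) and 15.6% in Mut (12.7 to 18.7). This share was 58.1% and 59.5% in dividing precursors and 5.12% and 4.44% in astrocytes. In the cells with at least 4 such UMIs, replication genes outside the list were also high: the DNA ligase Lig1 stood at 183 CPM against 20.1 in cells with 0 or 1 in WT, and at 185 against 11.5 in Mut.

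Markers of other cell types were low but not absent. The 6 astrocyte markers summed to 144 CPM in WT and 255 in Mut, below the 670.2 and 813 of the free RNA in barcodes of 10 to 100 UMIs, with Aqp4 the highest at 58.3 and 102 and none at 0. The 6 microglia markers summed to 73.6 and 54.0 CPM, the 5 endothelial markers to 126 and 46.1, the 5 mural markers to 84.8 and 65.8, and the 6 inhibitory neuron markers to 62.5 and 47.7, with none at 0. The 5 fibroblast markers summed to 20.9 and 23.7 CPM with none at 0, the 4 markers of border-associated macrophages to 2.92 and 15.3 with 1 and 0 at 0, and the 5 ependymal markers to 8.77 and 1.98 with 3 at 0 in each library. The 5 excitatory neuron markers summed to 2.02 and 2.26 CPM, with 2 and 3 of them at 0, and the 4 haemoglobin genes to 1701 and 839. Of the 9 oligodendrocyte markers, which summed to 219 and 215 CPM, Cnp made up 162 and 160.2 and 3 and 2 stood at 0. Scrublet scored 62 WT (7.45%) and 44 Mut (7.12%) of the resting precursors among the likely doublets. The number marked was fixed in advance from the number of barcodes, at 8.82% of all kept barcodes in WT and 8.08% in Mut. The shares therefore do not measure how many doublets there were. Barcodes with both Xist and Y-linked UMIs, at least 1 of each, numbered 12 and 22. Whether they held more than 1 cell or free RNA was not tested. Katnal2 itself was near the floor, with 8 UMIs (1.80 CPM, 0.777 to 3.55) in WT and 10 UMIs (2.83 CPM, 1.35 to 5.20) in Mut, about the level of free RNA (2.11 and 3.87 CPM).

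The profile of the cells was described against all other kept barcodes, which still hold the remaining precursors, so that the ratios are understated. A log2 ratio of at least 1 in both libraries was reached by 462 of 7134 genes (6.48%), and by 15 of 23 measured precursor identity genes that the rule did not use. The 25 genes with the highest ratio among those of at least 100 CPM included 5 of the 6 marker genes of the rule, while Olig1 ranked 67. Among transcription factors outside the rule, Olig2, the partner of Olig1 in lineage choice, stood at 489 and 504 CPM against 156 and 153 in other barcodes, and Npas1 at 154 and 144 against 20.7 and 20.3. Ptprz1, a receptor phosphatase carrying chondroitin sulphate chains, is an abundant transcript of precursors (3116 and 3493 CPM) that did not set them apart, because other barcodes held 3847 and 3949.

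Several lists of contact and synapse genes reached this ratio in a larger share than all genes did. Of 33 synaptic adhesion and contact molecules, 18 reached the ratio in both libraries, as did 8 of 13 glutamate receptor genes, 9 of 17 channel genes and 11 of 24 genes of chondroitin proteoglycans and matrix. Cntn1, a contact protein of axons and glia, had 759.7 CPM in WT and 805 in Mut against 99.6 and 111 in other barcodes, and Lrrtm3, a postsynaptic organiser, at 122 and 126 against 16.7 and 15.5. The AMPA receptor subunits Gria2 and Gria3 stood at 789.9 and 883 CPM and at 190.1 and 222 CPM, and the kainate receptor partner Neto1 at 122 and 114. The sodium channel Scn3a was at 177 and 175 CPM and the potassium channel Kcnd2 at 217 and 219. Matn4, a matrix protein, was at 297 and 320 CPM. Of 23 sterol synthesis genes, 41 vesicle trafficking genes and 45 nuclear genes of oxidative phosphorylation, 0 reached it. Over all genes the share was 6.48%, which amounts to few genes in lists of this size, so these lists are not called depleted.

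**Figure D1:**
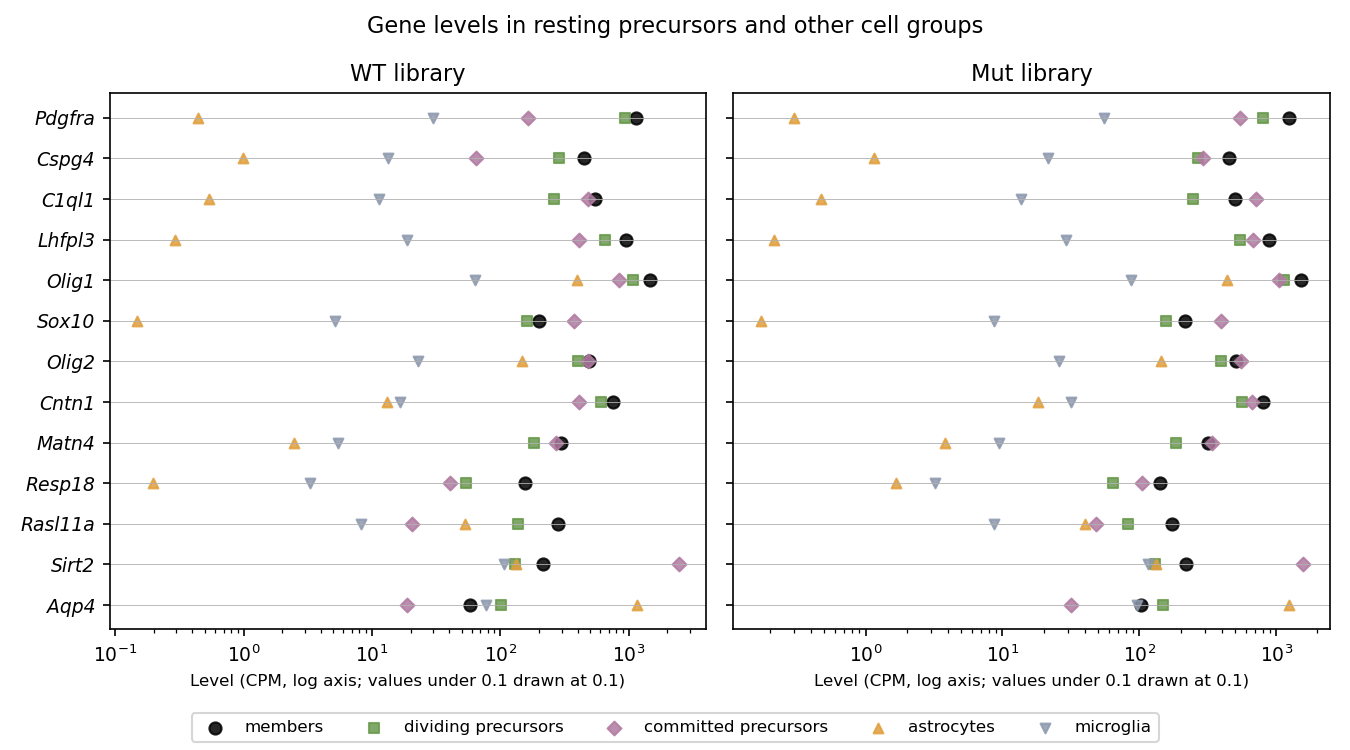
Levels of marker and other genes in the WT (left) and Mut (right) library, in CPM on a log axis. Points stand for the summed UMIs of resting precursors (members), dividing precursors, committed precursors, astrocytes and microglia. In both libraries the resting precursors hold more Pdgfra, Cspg4, Resp18 and Rasl11a than the other groups, and Sirt2 is far higher in committed precursors. Pdgfra and Cspg4 belong to the rule that chose the cells, so their order was in part set by the choice.

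Resting and dividing precursors differed almost only in 1 direction. At a log2 ratio of 1 in both libraries, 276 of 7070 genes were lower in resting precursors (3.9%) and 9 were higher (0.127%). The lower ones included Hist1h1b, a linker histone of S phase (23.4 and 19.8 CPM against 1527 and 1522), and Ube2c, which acts at mitotic exit (13.7 and 9.32 against 794 and 629.7). Both groups were split by 3 mitotic genes, so the direction for genes of that programme was set by the choice. On the other side, Resp18, a protein of the secretory pathway, stood at 155 and 142 CPM against 53.9 and 63.9, Rasl11a, a small GTPase of the Ras family, at 279 and 173 against 137 and 82.6, and the G protein subunit Gng3 at 264 and 262 against 131 and 123.

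Committed precursors, taken as Olig1 and Sox10 positive barcodes with at least 10 UMIs of Gpr17 and Bcas1 (72 WT and 90 Mut cells), differed in both directions: of 6835 genes, 139 were higher in resting precursors (2.03%) and 166 lower (2.43%). Bmp4, a secreted signal of the BMP family, stood at 2.47 and 3.11 CPM in resting against 567 and 388 in committed precursors. The sialidase Neu4 stood at 20.2 and 16.1 CPM against 342 and 229, and the deacetylase Sirt2 at 216 and 219 against 2456 and 1558. Sox9, a glial transcription factor, was at 387 and 422 CPM in resting against 40.9 and 101 in committed precursors, and the metalloproteinase Mmp15 at 397 and 413 against 40.9 and 125. Resting and committed precursors were split by Gpr17 and Bcas1, so the direction for genes that change with commitment was in part set by the choice. The WT and Mut committed groups were themselves unlike, with 163 and 548 CPM of Pdgfra. Against astrocytes, 648 of 6785 genes were higher in resting precursors (9.55%) and 454 lower (6.69%). Vxn, Trnp1, Matn4 and Tnr were among the highest ratios, and Aqp4, Gja1, Aldh1l1 and Tnc among the lowest. The astrocytes were chosen by markers that include Aqp4, Gja1 and Aldh1l1, so the direction for these genes was set by the choice.

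The resting precursors were not uniform. Clustering both libraries together gave 9 clusters. Clusters were formed from the same genes, so their leading genes are a description. Cluster 1 (414 cells) was led by Gm47591, Akap12, Il1rap, Creb5 and Rasl11a, and held the most Gria2 (1102 CPM in WT and 1225 in Mut, against 682 and 756 in the remaining cells). Cluster 2 (360 cells) was led by S100b, a calcium-binding protein, at 199 and 179 CPM against 52.6 and 47.7, with Pnlip, Caly, Lmcd1 and Col9a3. Cluster 3 (223 cells) had among its leading genes the Notch ligand Dll3 (176 and 194 CPM against 22.9 and 32.0), Cd24a and Egr1. Cells of cluster 3 had less Pdgfra than those of cluster 1, 698 and 747 CPM against 1515 and 1681. Of the 2 genes of the commitment limit, Gpr17 was lower in cluster 3 than in cluster 1 (89.3 and 69.9 against 189 and 171 CPM), while Bcas1 was higher in cluster 3 than in the remaining cells (104 and 138 against 40.9 and 31.0). Cluster 5 (147 cells) was led by the replication genes Gmnn, Pclaf, Hells, Fam111a and Lig1, and held 283 and 322 CPM of Pcna against 48.3 and 40.6 in cluster 1.

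The leading genes of clusters 6 to 9, and the haemoglobin genes of cluster 4, were those of other cells. Cluster 4 (208 cells) was led by the 4 haemoglobin genes and Selenoh, with Hbb-bs at 4728 CPM in WT and 3346 in Mut against 420 and 54.7 in the remaining cells. Only 25.4% and 21.1% of its cells held a UMI of Hbb-bs, against 23.1% and 25.6% in cluster 1, so that a minority of its cells carried the sum. It was the shallowest, with a median of 4194 UMIs, and had Hmgb1 at 2122 and 2346 CPM against 1048 and 1047. Cluster 6 (59 cells) was led by the astrocyte genes Aqp4, Gja1, Tnc, Gfap and Slc4a4, had a median of 13226 UMIs and held 18 of the cells with both Xist and Y-linked UMIs. Clusters 7 (17 cells), 8 (13 cells) and 9 (9 cells) were led by Dlx6os1 and Stmn2, by Cldn5 and Ctla2a, and by C1qa and C1qb, genes of inhibitory neurons, vessels and microglia. Their part in the results was not tested, other than by leaving clusters 6 to 9 out.

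**Figure D2:**
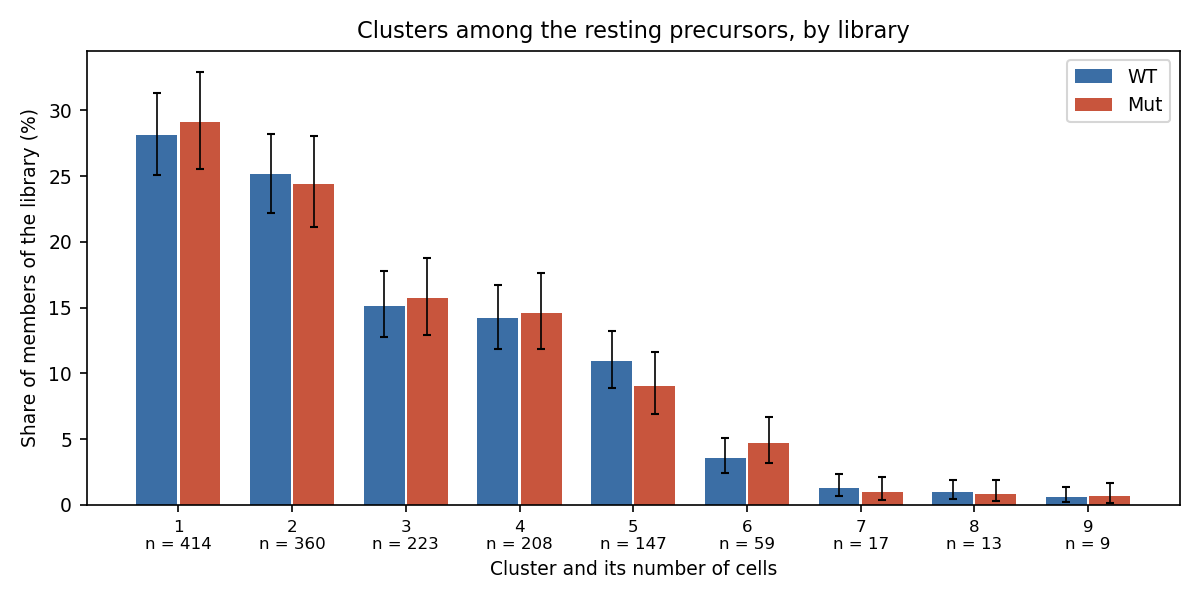
Share of the resting precursors of each library, in percent, that fell in each of 9 clusters, with exact 95% intervals for counting error. Below each number stands the count of cells in the cluster. The bars of both libraries overlap in their intervals in every cluster.

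Both libraries filled the clusters alike within counting error. Cluster 1 held 28.1% of WT and 29.1% of Mut cells, cluster 2 25.1% and 24.4%, cluster 3 15.1% and 15.7%, cluster 4 14.2% and 14.6%, cluster 5 10.9% and 9.06%, and cluster 6 3.61% and 4.69%. Cells with and without Gpr17 or Bcas1 below the limit were also compared, and the genes given are from the ends of that comparison. The cells were split by their full counts of Gpr17 and Bcas1, 1 or 2 UMIs against 0. The 2 groups differed in depth, with medians of 5200 against 4924 UMIs in WT and 5543 against 5103 in Mut. Only the compared genes were counted at 2000 UMIs per cell. Cells with 1 or 2 UMIs had more of the NMDA receptor subunit Grin3a (145 against 101 CPM in WT and 154 against 110.2 in Mut). They had less of the immediate early gene Egr1 (259 against 347 and 308 against 472).

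The share of resting precursors was lower in Mut, but this rested on 1 condition of the rule. They made up 7.55% of kept barcodes in WT (7.06 to 8.06) and 6.12% in Mut (5.66 to 6.60), a ratio of 0.811 (0.729 to 0.901). Barcodes with at least 4 of the 6 markers made up 19.2% in both libraries (2117 and 1935 barcodes), a ratio of 0.997 (0.937 to 1.06). The limit on Gpr17 and Bcas1 then kept 49.7% of them in WT and 40.9% in Mut. Without that limit, an alternative chosen after seeing the data, the share was 13.5% in WT (1489 cells) and 13.7% in Mut (1383 cells), and the ratio turned to 1.01 (0.941 to 1.09). In these larger groups Gpr17, a receptor that marks commitment, stood at 425 CPM in WT (411 to 439) and 517 in Mut (502 to 533), and Bcas1 at 211 and 208. Gpr17 stood at 416 and 542 CPM in female cells and at 450 (427 to 473) and 492 (463 to 522) in male cells, where the intervals overlapped.

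Depth moves with this limit, since a deeper cell more easily exceeds 2 UMIs. From the shallowest to the deepest of 4 depth classes, 91.5%, 60.5%, 42.8% and 38.3% of WT barcodes passed it, and 81.1%, 50.5%, 33.8% and 36.6% of Mut barcodes. The Mut share was below the WT share in all 4 classes, and the intervals did not overlap in the 2 middle classes, which hold most cells. With each cell thinned to 3000 UMIs, 79.2% of WT (77.0 to 81.3) and 71.3% of Mut cells (68.7 to 73.7) had 2 UMIs or fewer. In female cells these were 78.0% and 71.3%, and in male cells 79.0% and 70.6%. Just inside the limit, 287 and 246 cells had exactly 2 UMIs of Gpr17 and Bcas1, and just outside it 219 and 190 barcodes had exactly 3, with 1218 and 1250 CPM of Pdgfra inside and 1232 and 1342 outside. Female cells made up 49.5% of the sexed resting precursors in WT (299 female and 305 male) and 65.8% in Mut (335 female and 174 male). Over all kept barcodes the female share was alike, 47.3% in WT and 65.6% in Mut, so this difference belongs to the libraries as a whole.

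**Figure D3:**
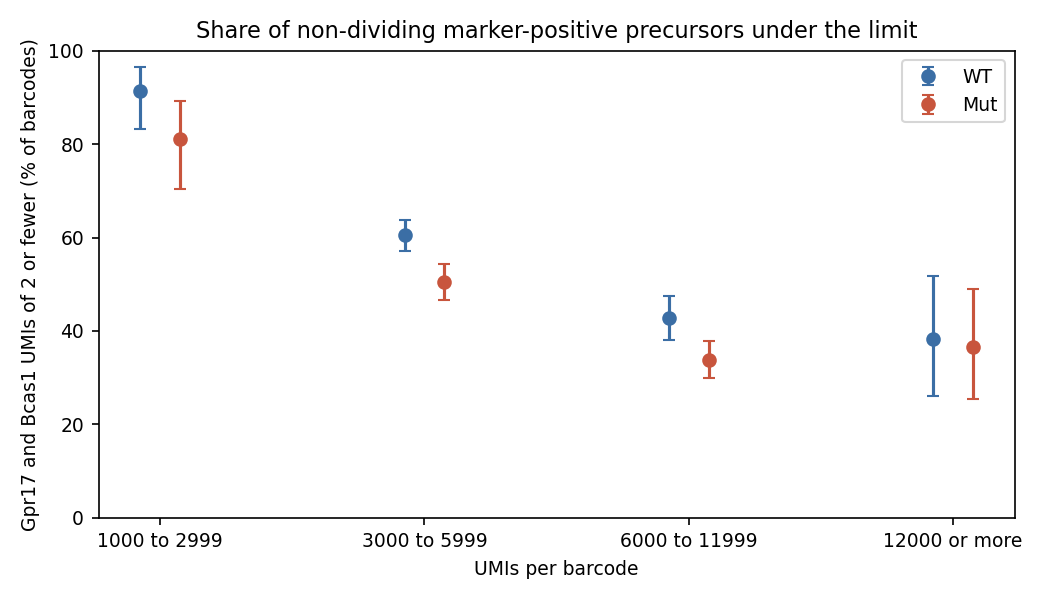
Percent of non-dividing barcodes with at least 4 of 6 markers that had at most 2 UMIs of Gpr17 and Bcas1, by UMIs per barcode, with exact 95% intervals. WT lies above Mut in each class, and both fall from the shallowest class on to the third.

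Most genes differed little between the resting precursors of both libraries. Of 7284 genes with a mean of at least 20 CPM, 445 were higher in Mut by a log2 ratio of at least 0.3 (6.11%) and 195 were lower (2.68%), taken after adding 5 CPM. With TMM scaling, which shifts the median of all genes from 0.033 to -0.0053, these were 289 and 277, so that 51.1% of the genes past 0.3 were higher in place of 69.5%. The sums behind the ratios were 4444902 UMIs in WT and 3539532 in Mut. Female and male cells of each library form pools that share the library but not the animals: both Mut pools lay above both WT pools for 1834 genes (25.2%) and below for 1133 (15.6%). Summed markers of the precursor identity were alike, with 3087 CPM of Pdgfra, Cspg4, C1ql1 and Lhfpl3 in WT and 3061 in Mut. These genes belong to the rule that chose the cells in both libraries, so the likeness was in part set by the choice.

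Tmem179, Pou3f1 and Rasl11a were among the 15 genes with the lowest ratio and were also the 3 of them that most set the resting precursors apart from other barcodes. They were singled out after their values were seen. Tmem179, a membrane protein (chromosome 12, 112500189 to 112516747, minus strand, GRCm38), had 175 CPM (163 to 188) in WT and 95.5 (85.6 to 106) in Mut, a log2 ratio of -0.84. Its level in other barcodes was 16.9 and 8.97 CPM. Rasl11a (chromosome 5, 146845071 to 146847726, plus strand) stood at 279 CPM (264 to 295) and 173 (160.0 to 188), a log2 ratio of -0.67. Outside these cells Rasl11a was lower in Mut too, at 47.0 and 37.0 CPM in other barcodes and 53.1 and 39.9 in astrocytes. Pou3f1, a POU domain transcription factor of glia and neurons (chromosome 4, 124656807 to 124660655, plus strand), stood at 115 CPM (105 to 126) and 70.1 (61.6 to 79.4), a log2 ratio of -0.68. Other barcodes held 16.4 and 12.2 CPM of Pou3f1.

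The direction was the same in both sexes. In female and male cells the log2 ratio of Tmem179 was -0.95 and -0.71, that of Rasl11a -0.60 and -0.44, and that of Pou3f1 -0.67 and -0.38, and both Mut pools lay below both WT pools for each. For Pou3f1 the male intervals overlapped (106 to 139.9 and 74.3 to 114 CPM). Cells that the rule left out gave a like picture. In precursors with 3 to 9 UMIs of Gpr17 and Bcas1 (588 and 667 cells), Tmem179 had 165 CPM (WT) and 91.2 (Mut), Rasl11a at 193 and 130.3, and Pou3f1 at 80.9 and 60.6. In dividing precursors the same genes stood at 85.1 and 32.7, at 137 and 82.6, and at 83.1 and 53.8 CPM. In committed precursors Tmem179 and Rasl11a were instead higher in Mut, at 46.0 and 69.3 and at 20.4 and 48.5 CPM from 12 to 50 UMIs, and Pou3f1 stood at 47.7 and 40.2. These cells come from the same 2 libraries and are not further replicates. Within each of clusters 1 to 6 all 3 genes were lower in Mut, by a log2 ratio of -0.17 (Rasl11a in cluster 3) to -1.58 (Tmem179 in cluster 3).

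The promoters of these genes are shown because the genes are high in precursors and lower in Mut together, with that of Pdgfra, which was not lower, beside them. Each runs 5′ to 3′ on the gene's strand and ends just before the transcription start that RefSeq lists in GRCm38.p6. That of Tmem179 ends 12 bases earlier, where an annotated exon begins, and lies within the longer span of the gene given above, so it precedes only the start that RefSeq lists. They lie at chr12:112511173-112511410 (minus strand), chr5:146844821-146845070 (plus strand) and chr5:75152001-75152250 (plus strand). Capitals mark the E-box CAGCTG and the GC box GGGCGG, searched on both strands with the Sox motif ACAAAG and the octamer ATGCAAAT.
Tmem179: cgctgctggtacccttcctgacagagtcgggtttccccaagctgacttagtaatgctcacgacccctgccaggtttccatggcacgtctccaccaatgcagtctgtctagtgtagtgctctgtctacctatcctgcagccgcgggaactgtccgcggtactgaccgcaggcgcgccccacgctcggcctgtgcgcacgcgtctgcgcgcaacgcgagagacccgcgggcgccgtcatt
Rasl11a: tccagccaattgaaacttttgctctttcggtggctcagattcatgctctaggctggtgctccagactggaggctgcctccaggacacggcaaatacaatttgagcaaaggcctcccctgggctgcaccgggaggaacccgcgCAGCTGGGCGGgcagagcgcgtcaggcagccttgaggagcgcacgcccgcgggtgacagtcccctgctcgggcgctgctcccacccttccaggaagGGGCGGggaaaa
Pdgfra: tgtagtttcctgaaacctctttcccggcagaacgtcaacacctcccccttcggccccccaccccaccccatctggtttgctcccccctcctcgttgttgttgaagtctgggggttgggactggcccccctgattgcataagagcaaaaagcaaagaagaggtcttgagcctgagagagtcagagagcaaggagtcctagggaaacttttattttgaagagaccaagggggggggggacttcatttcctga
The Rasl11a window held 1 E-box and 2 GC boxes, of which 1 overlaps the E-box, and the other windows held none of the 4 motifs. Of 32851 windows of 250 bases before a RefSeq start, 13.0% held CAGCTG, 32.7% GGGCGG, 16.5% ACAAAG and 1.60% ATGCAAAT, so these letters are common and the matches only describe the sequences. No promoter is shown for Pou3f1.

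**Figure D4:**
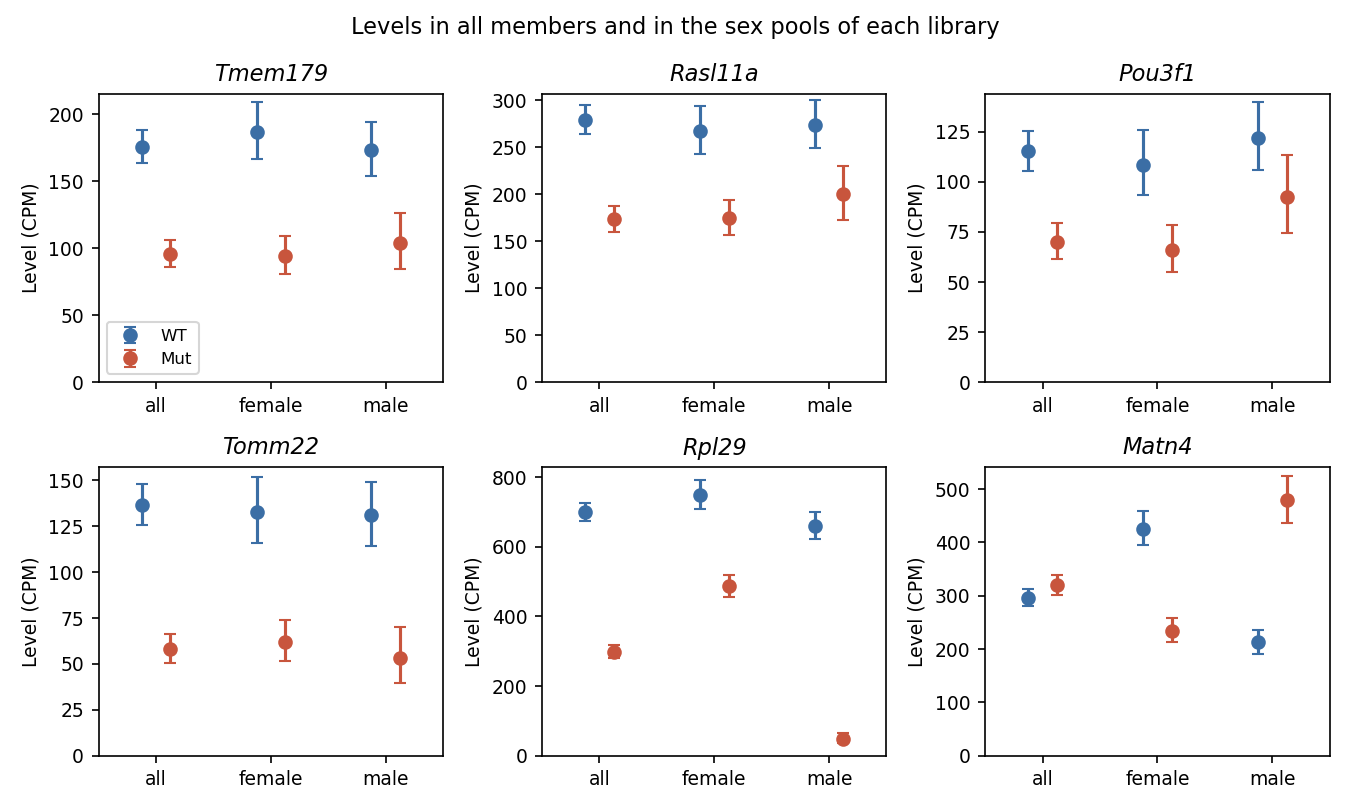
Levels of 6 genes, in CPM with exact Poisson 95% intervals, in all resting precursors and in the female and male pools of the WT and Mut library. Tmem179, Rasl11a, Pou3f1 and Tomm22 are lower in Mut in every pair, Rpl29 is near the bottom of the axis in Mut male cells, and Matn4 turns between the sexes.

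Tomm22 and Rpl29 were lower in Mut in astrocytes and microglia too. Tomm22, a subunit of the mitochondrial import pore, had 137 CPM in WT and 57.9 in Mut resting precursors and 128 and 59.9 in astrocytes. The ribosomal protein gene Rpl29 stood at 699.9 and 299 CPM, at 553 and 224 in astrocytes and at 823 and 368 in microglia. In male resting precursors it was at 660.5 and 49.3 CPM, and in female ones at 749 and 487. Rpl29 belongs to a family with many processed copies, where counts are uncertain. Both Mut pools lay below both WT pools for all 15 genes but Rps18, which the choice of the lowest ratios over the same cells largely sets. Also in this set were Minar2 (78.7 and 48.0 CPM), the long RNA 4430402I18Rik (63.0 and 45.5), Smdt1, a regulator of mitochondrial calcium uptake (437 and 325), and the Notch modulator Dtx1 (52.6 and 38.7).

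Of the 15 genes with the highest ratio, chosen over the same cells, 12 had both Mut pools above both WT pools. Among these were Cdk2ap1, an inhibitor of a cell cycle kinase (227 CPM in WT, 314 in Mut), Sec62, a part of the translocon of the endoplasmic reticulum (258 and 355), Snhg6, a host of small nucleolar RNAs (94.9 and 135), Slirp, which stabilises mitochondrial transcripts (72.2 and 104), Eif4ebp2, a brake on translation initiation (64.6 and 92.4), and Gpx3, a secreted glutathione peroxidase (46.8 and 67.5). In other barcodes these genes were higher in Mut too. There Sec62 had 257 and 329 CPM, Snhg6 57.9 and 75.1, Slirp 70.9 and 86.7, and Gpx3 12.6 and 20.7. Zfp157, a zinc finger gene, stood at 48.1 and 72.9 CPM against 28.2 and 29.7 in other barcodes. In precursors with 3 to 9 UMIs of Gpr17 and Bcas1 it had 55.9 and 59.2 CPM, and in dividing precursors 37.0 and 32.0. In committed precursors it had 30.6 and 66.5 CPM. The growth factor receptor list held S1pr1, a sphingosine phosphate receptor, at 53.8 and 83.6 CPM. The highest ratio was that of Gm10260, and it lay in female cells alone (3.64 and 85.3 CPM; 61.1 and 55.4 in male cells). Its transcript matched that of the ribosomal protein gene Rps18 over 411 bases at 98.5% identity, so reads of the 2 genes may be exchanged, and Rps18 itself stood at 2454 and 1328 CPM in female and 1563 and 1722 in male cells.

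The medians of the gene lists are read against 0.033 for all measured genes, of which 58.5% were above 0 and 41.5% below. For identity genes outside the rule the median log2 ratio was 0.106, with 18 of 23 above 0, and 1 reached 0.3 (Tmem100, 153 and 191 CPM). Growth factor receptors had a median of 0.069 and targets of the ERK pathway 0.052, with Egr1 (0.30) and Ier3 (-0.29) at the ends. Glutamate receptors had a median of 0.053, from Grm5 (86.6 and 117 CPM) to Cnih2 (69.7 and 62.2 CPM), and synaptic adhesion molecules 0.064, with 0 of 34 past 0.3 in either direction. Genes of differentiation and myelin stood at 0.012, with 10 of 19 above 0 and Fyn, a kinase of the onset of myelination, at 340 and 385 CPM. Genes of microtubule severing and of microtubule proteins had a median of 0.038. Of these, the Katnal2 relatives Katna1 and Katnal1 stood at 20.7 and 23.7 and at 28.3 and 28.8 CPM. Vesicle trafficking stood at 0.043 and primary cilium genes at 0.012. The medians for voltage-gated and potassium channels (0.047), GABA receptors (-0.052), Wnt (0.065) and Notch genes (0.11), S phase genes (0.016) and G1 cyclins and brakes (0.022) were of the same size. For the last pair the sexes went opposite ways, with 0.219 in female and -0.121 in male cells for S phase genes and 0.111 and -0.065 for cyclins and brakes.

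Mitochondrially encoded genes had the lowest median of the lists with at least 5 measured genes. Of 13 mitochondrially encoded genes 12 were lower in Mut, with a median of -0.20, and both Mut pools lay below both WT pools for 11. mt-Atp6, a subunit of ATP synthase, stood at 9113 and 6896 CPM, and mt-Co2, of cytochrome oxidase, at 6065 and 4806. The median mitochondrial share of UMIs, a measure of RNA quality, was 4.11% in WT and 3.34% in Mut, and the same genes were lower in other barcodes (mt-Atp6 8866 and 7022 CPM). Of 45 nuclear genes of the same respiratory complexes, 34 were higher, the median being 0.124, and both Mut pools lay above for 32. Among them were Atp5mpl (201 and 294 CPM), Atp5md (245 and 344) and Ndufc1 (229.7 and 319), which in other barcodes also stood higher in Mut (Atp5md 211 and 318 CPM).

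The medians of some lists differed between the sexes. Of 23 sterol synthesis genes 20 were above 0 (median 0.139), but the median was 0.318 in female and -0.036 in male cells. The 16 immediate early genes had a median of 0.145, against -0.06 and 0.057 within the sexes, and the 5 measured MHC class I and interferon genes 0.252, against 0.274 and 0.074. For regional patterning factors the sexes were alike: the list, led by Lhx2 (48.6 and 63.0 CPM), had a median of 0.257 with 6 of 6 above 0, and 0.226 and 0.235 within the sexes. Guidance receptors had 0.126 and proteoglycans and matrix genes 0.106. All 23 inhibitors of differentiation were above 0, with a median of 0.113, but 0.088 in female and 0.019 in male cells, and both Mut pools lay above for 7 of them. The largest of them, Id1 (55.1 and 94.4 CPM) and Id3 (181 and 263), were high in cells with both Xist and Y-linked UMIs (Id1 409 and 636 CPM), where Aqp4 stood at 377 and 846. Without clusters 6 to 9 the log2 ratios of Id1 and Id3 were -0.26 and -0.17, and that of the matrix gene Tnc went from 0.87 to 0.35.

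**Figure D5:**
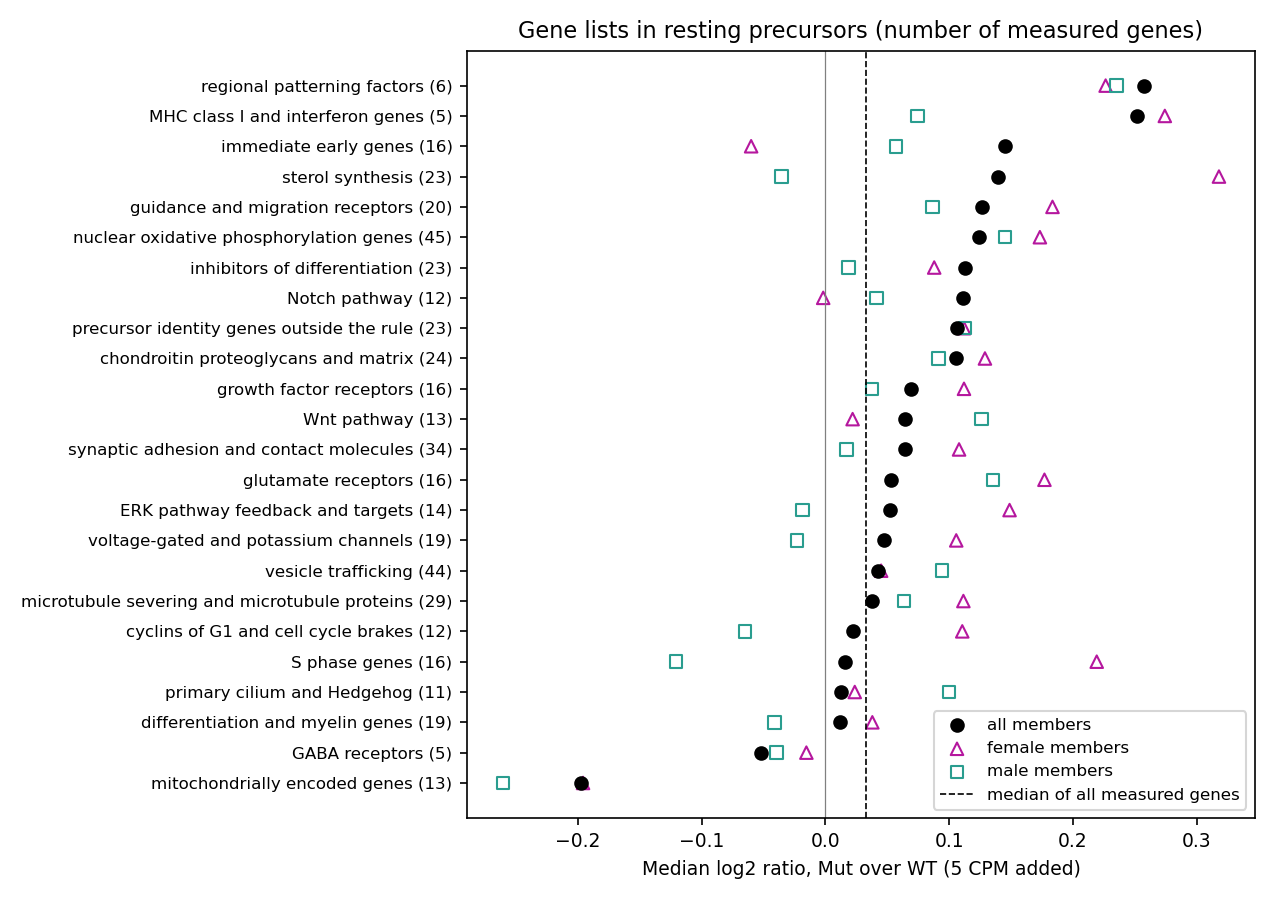
Median log2 ratio of Mut over WT of each gene list with at least 5 measured genes, in all resting precursors (filled points) and in female and male cells (open triangles and squares). The dashed line is the median of all measured genes, 0.033, and mitochondrially encoded genes lie lowest in all 3.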

How the data were processed

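The authors deposited raw counts of UMIs per gene and barcode for every barcode (32285 genes; 93664707 UMIs in WT and 97891513 in Mut). The build GRCm38 and the tools Cell Ranger 4 and STAR come from the submitters' processing notes; the annotation release is not given in the sources used here. Symbols came from the deposited gene table; 1 listed symbol (Gpr56) was not found. All barcodes have the same suffix, although the series speaks of replicates within a sample.

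Counts were summed over the chosen cells of a library and given as CPM. Ratios used log2 after adding 5 CPM, on genes with a mean of at least 20 CPM. Sums carry exact Poisson, shares exact Clopper-Pearson and ratios of shares conditional binomial intervals at 95%. PCR and capture were not modelled. Cells of 1 library are not replicates, so no test and no p-value is given. A change of 0.3 in log2 ratio is a size and not a call of significance.

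Dividing precursors followed the rule but with at least 4 UMIs of Mki67, Top2a and Cenpf. Committed precursors had Olig1 and Sox10, at least 10 UMIs of Gpr17 and Bcas1, and met the limits on dividing and myelin genes. Astrocytes had at least 4 of 6 astrocyte markers, at most 1 UMI of the dividing genes and at most 1 of the 6 rule markers, and microglia at least 4 of 6 microglia markers. Female cells had Xist and no Y-linked UMI, male cells the reverse. Clusters used scanpy 1.11.5 (2000 variable genes, 20 components, 15 neighbours, Leiden resolution 0.5), and doublets were the highest Scrublet scores at 0.8% per 1000 barcodes. Doublets were kept and removed as an alternative. The computation was tested on simulated counts. 39 barcode sequences were kept in both libraries, and 2 of the resting precursors of each library carry one kept in the other.

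Named genes are the 25 highest against other barcodes, the 10 highest and lowest against each like group, the 15 highest and lowest between libraries (at least 50 CPM, without mitochondrial, haemoglobin and sex-linked genes or genes whose level in free RNA was above that in the cells in both libraries), up to 4 per list and 5 per cluster; a few others are named from lists after their values were seen, and a few that the rule names are not reported here. The cells and the gene lists were chosen with earlier results of these data known.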

Additional observations from a re-analysis of the deposited data

Results flagged for a closer look

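Among genes of the rule, the lists, the profile and the highest and lowest ratios, with a mean of at least 50 CPM, 5 had log2 ratios of Mut to WT of at least 0.3 in size and opposite sign in female and male resting precursors. Each pool is 1 value per library, and the difference was not tested. Matn4, a matrix protein, had a log2 ratio of -0.84 in female and 1.15 in male cells, from 425 and 235 CPM in female and 213 and 479 in male cells. Dll3, a Notch ligand, had -0.44 and 1.10. Hes6, a helix-loop-helix factor, had -0.30 and 0.49, and Hes1, a Notch target, 0.33 and -0.44. Nsdhl, an enzyme of sterol synthesis, had 0.36 and -0.39.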

How the results depend on the processing

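The share of resting precursors in Mut over WT stayed below 1 under 11 alternatives and turned to 1.01 without a limit on Gpr17 and Bcas1. The 445 genes higher and 195 lower in Mut became 921 and 518 in female cells, 962 and 709 in male cells, 982 and 571 at 2000 UMIs per cell, 926 and 535 at a minimum of 5 CPM, 168 and 64 at 50 CPM, 183 and 77 with 20 CPM added, 66 and 33 at a log2 ratio of 0.5, 236 and 81 without the limit on Gpr17 and Bcas1, and 289 higher with TMM scaling. Under the other settings the 2 counts stayed within 1.5 times. Of list medians of at least 0.1 in size, those that turned were identity genes (-0.013 with at least 3 of 6 markers), Notch (-0.0018) and immediate early genes (-0.081) in female cells, and sterol synthesis (-0.036) and MHC class I genes (-0.056) in male cells, where the genes of a list are those measured in these cells. Smaller medians also changed sign in male cells: ERK targets (-0.018), channels (-0.023), differentiation and myelin (-0.041), S phase (-0.052) and G1 cyclins and brakes (-0.065). Single genes turned as follows: Id1 to -0.048 and Id3 to -0.11 without Scrublet doublets, -0.24 and -0.11 without cells carrying 2 or more markers of another type, -0.26 and -0.17 without clusters 6 to 9, and -0.23 and -0.14 in male cells; Id1 to -0.11 and Sparcl1 to -0.36 in female cells; and Gm10260 to -0.13, Lamtor3 to -0.097 and Rps18 to 0.14 in male cells. The cause was not tested. The removal of barcodes with Xist and Y-linked UMIs, of the limit on Gpr17 and Bcas1 and of clusters 6 to 9 was chosen after seeing the data. No paired analysis was possible because each genotype has 1 library. Depth limits the sex pools, with 174 male cells in Mut.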

Other observations

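Among the cells with no sex-linked UMI (216 in WT and 87 in Mut), Matn4 had 233 CPM (WT) and 438 (Mut), and Rpl29 697 and 99.9. In resting precursors with at least 4 S phase UMIs at 2000 UMIs per cell, the haemoglobin transcript Hbb-bs had 45.8 and 48.9 CPM. In those with 0 or 1 it had 701 and 462. Its level was uneven among the cells, with 54.4 and 53.1 CPM in cluster 1 and 4728 and 3346 in cluster 4. Only 25.4% and 21.1% of the cells of cluster 4 held a UMI of it. The transcription factor Etv1 had 80.2 and 70.7 CPM in cells with at least 4 S phase UMIs, against 132 and 130.4.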
